A study of Homo sapiens with 32 samples.

Results

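The genes described here are 9 members of the p53 pathway, MDM2, MDM4, PPM1D, CDKN1A, BTG2, BBC3, TP53INP1, GDF15 and SESN1, taken by name from 59098 genes of the RefSeq table on chromosomes 1 to 22 and X. All 9 were found in the table, and their m6A peaks were the peaks of each list that overlapped the gene body by at least 1 base on either strand. N6-methyladenosine (m6A) had been mapped by MeRIP-seq, an antibody pull-down of methylated RNA fragments, on chromatin-associated RNA of established human cancer cell lines. Of the 8 groups, 4 came from colon adenocarcinoma lines, LOVO shMETTL3, LOVO control, RKO shMETTL3 and RKO control, with 1 deposited peak list each, and the other 4 from ovarian cancer lines, OVCAR8 shMETTL3, OVCAR8 control, SKOV3 shMETTL3 and SKOV3 control, with 2 lists each. The genotype labels are knockdown of METTL3 or WT, shMETTL3 being the knockdown, and no drug, dose or time is labelled. Library names call the OVCAR8 and SKOV3 controls shControl, and the peak lists of the LOVO and RKO controls are named shControl too.

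p53 is a transcription factor activated by DNA damage and other stress. It drives genes that stop the cell cycle, start apoptosis or repair damage, and it also drives MDM2, whose product marks p53 for degradation and so closes a feedback loop. METTL3 is the catalytic subunit of the enzyme complex that places m6A on nascent RNA, most often near stop codons and in long exons. LOVO and RKO are known as lines with wild-type p53, and SKOV3 is known to lack p53.

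The lists held 31060 to 37398 peaks in LOVO and RKO and 15484 to 29102 in OVCAR8 and SKOV3. No LOVO or RKO peak had a score under 3, a score that no header explains, while the OVCAR8 and SKOV3 lists ran down to a fold enrichment of 1.25. Tissue, p53 state and the kind of list therefore cannot be told apart in any comparison of colorectal with ovarian lists. Of 10 intestinal epithelium markers, 7 and 8 had a peak in LOVO shMETTL3 and LOVO control, 0 and 1 in RKO shMETTL3 and RKO control, and 0 in every ovarian list. Of 10 ovarian and Müllerian markers, 3 and 4 had a peak in the LOVO lists, 3 and 3 in the RKO lists, 2 and 6 in OVCAR8 shMETTL3 and OVCAR8 control, and 6 and 3 in SKOV3 shMETTL3 and SKOV3 control, the same number in both replicates. WT1, SOX17 and EMX2, of the second list, had 0 peaks in all 12 lists. By the share of their peaks found in a control list, the ovarian knockdown lists went against their labels. On average 95.94% of the peaks of an OVCAR8-labelled shMETTL3 list overlapped a peak of a SKOV3 control list, against 69.29% for an OVCAR8 control list. For a SKOV3-labelled shMETTL3 list the overlap was 81.95% with OVCAR8 control and 56.48% with SKOV3 control. Such shares depend on list length, and the OVCAR8-labelled shMETTL3 lists held only 15484 and 15744 peaks. Of OVCAR8 control peaks, 75.73% overlapped a SKOV3-labelled and 36.06% an OVCAR8-labelled shMETTL3 peak. Of SKOV3 control peaks it was 50.02% and 46.2%, which did not go against the labels. Ovarian peak numbers, calls and lost or gained regions are therefore given against both controls. The alternatives for lost and gained regions are given as labelled. RKO control, too, shared more peaks with the LOVO lists than with RKO shMETTL3. Of RKO control peaks, 39.95% overlapped an RKO shMETTL3 peak, 59.71% a LOVO control peak and 49.57% a LOVO shMETTL3 peak. For RKO shMETTL3 peaks the overlap was 45.06% with RKO control and 43.02% with LOVO control. Of LOVO control peaks, 62.21% overlapped a LOVO shMETTL3 peak. What sets the RKO lists apart was not tested. A peak needs both transcript and methylation, and input levels were not analysed here, so a missing peak and a missing transcript cannot be told apart. Nor do peaks in METTL3 itself, 0 to 3 a list, check the knockdown.

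The 9 genes fell into 3 patterns. MDM2, MDM4, PPM1D and SESN1 had at least 1 peak in all 12 lists, whatever the line and condition, where 27.2% of 15892 genes with a peak in at least 2 lists did so. These are also the longest of the 9 genes, 41.72 to 110.54 kb, against 3.02 to 23.41 kb for the others. The 27.2% takes no account of gene length, and a part of length in the patterns was not tested. CDKN1A, BBC3, TP53INP1 and GDF15 had peaks in colorectal lists and none in any of the 8 ovarian lists. BTG2 had a peak in 8 lists. The number of the 9 genes with a peak was 8 in LOVO shMETTL3 and 6 in LOVO control, 9 in RKO shMETTL3 and 9 in RKO control, 4 in each OVCAR8 shMETTL3 list and 5 in each OVCAR8 control list, and 5 in each SKOV3 shMETTL3 list and 4 in each SKOV3 control list. All their peaks together, 120 over the 12 lists, merged into 29 regions, of which 5 were in all 12 lists, 21 only in colorectal lists and 1 only in ovarian lists. Of the 29 regions, 2 lay on the strand opposite to the gene, 24 on its own strand, and the other 3 belong to TP53INP1, for which the tables used here give no strand.

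**Figure D1:**
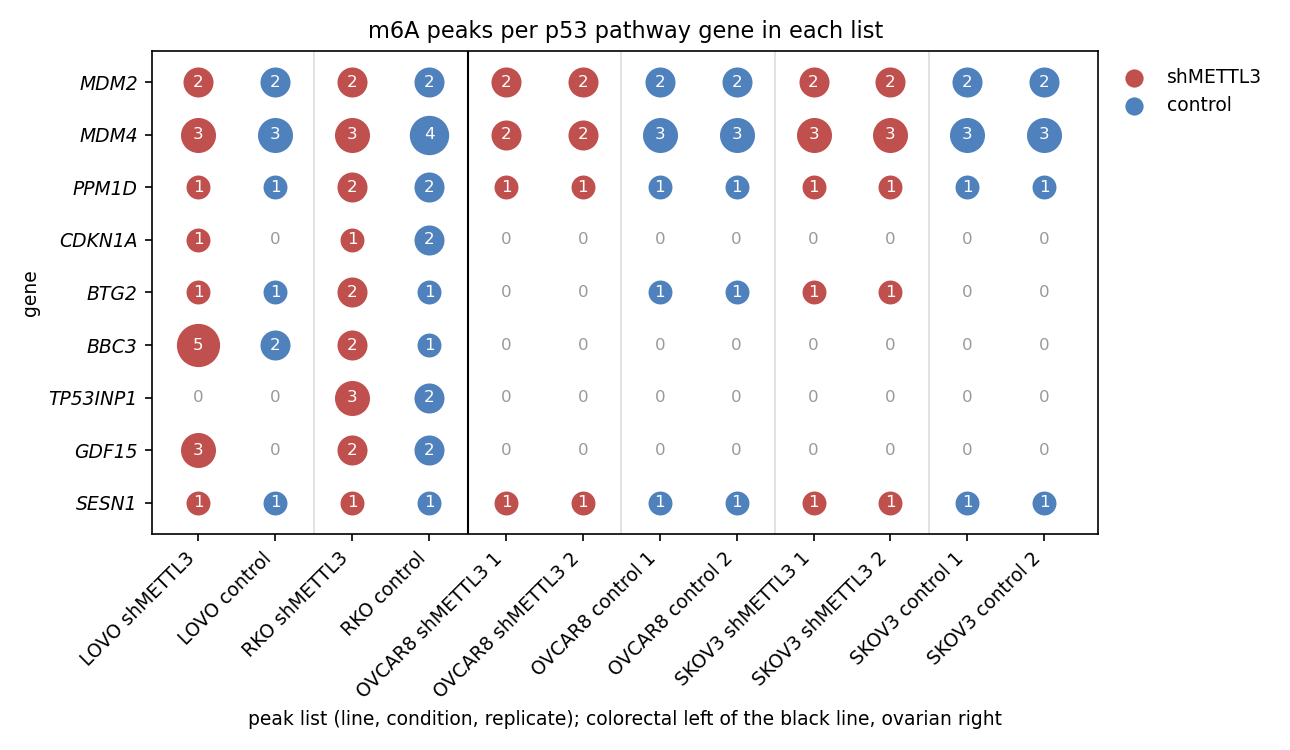
Number of m6A peaks in each of the 9 genes (rows) in each of the 12 peak lists (columns), with shMETTL3 lists in red and control lists in blue. MDM2, MDM4, PPM1D and SESN1 have a peak in every list, while CDKN1A, BBC3, TP53INP1 and GDF15 have none in the 8 ovarian lists.

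Promoter windows are shown for 4 genes because a peak on the gene's own strand covered the start of PPM1D or BBC3, or began within 100 bases downstream of the start of CDKN1A or GDF15, in some colorectal lists and in no ovarian list. They run from 250 bases before the start to 50 bases from the start on, 5′ to 3′ on the gene's strand, from RefSeq on GRCh38.p14, for which 8 of the 9 genes had an entry. The windows are chr17:60599943-60600242 on the plus strand for PPM1D, chr19:47232618-47232917 on the minus strand for BBC3, chr6:36678464-36678763 on the plus strand for CDKN1A and chr19:18385908-18386207 on the plus strand for GDF15. Capitals mark GGAC, the most common core of the m6A consensus in mammalian RNA, which occurs in the gene's orientation in 66.3% of all 35116 promoter windows of the table and on the opposite strand in 66.1%.
PPM1D: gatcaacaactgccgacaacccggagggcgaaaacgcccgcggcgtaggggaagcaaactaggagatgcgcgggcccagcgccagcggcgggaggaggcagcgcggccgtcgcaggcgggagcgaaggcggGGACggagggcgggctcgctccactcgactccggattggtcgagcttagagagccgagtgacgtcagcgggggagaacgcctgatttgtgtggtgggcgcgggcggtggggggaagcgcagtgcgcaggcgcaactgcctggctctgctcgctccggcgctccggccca
BBC3: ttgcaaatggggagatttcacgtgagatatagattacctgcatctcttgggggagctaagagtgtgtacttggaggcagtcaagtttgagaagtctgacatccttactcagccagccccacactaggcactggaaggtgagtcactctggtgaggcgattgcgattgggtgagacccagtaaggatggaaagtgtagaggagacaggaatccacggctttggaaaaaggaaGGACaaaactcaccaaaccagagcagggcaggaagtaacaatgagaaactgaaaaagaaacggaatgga
CDKN1A: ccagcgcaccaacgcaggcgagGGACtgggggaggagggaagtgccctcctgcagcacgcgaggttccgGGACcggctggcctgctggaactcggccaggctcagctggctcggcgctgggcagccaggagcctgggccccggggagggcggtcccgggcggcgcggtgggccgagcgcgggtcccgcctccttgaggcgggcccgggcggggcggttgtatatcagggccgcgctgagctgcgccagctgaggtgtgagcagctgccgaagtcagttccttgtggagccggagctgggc
GDF15: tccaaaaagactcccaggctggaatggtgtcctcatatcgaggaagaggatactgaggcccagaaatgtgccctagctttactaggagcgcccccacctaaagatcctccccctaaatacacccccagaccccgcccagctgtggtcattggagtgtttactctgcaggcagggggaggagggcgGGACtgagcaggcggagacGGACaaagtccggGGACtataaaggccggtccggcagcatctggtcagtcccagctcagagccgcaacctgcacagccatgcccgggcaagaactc
GGAC occurred 1 time in the window of PPM1D, 1 time in that of BBC3, 2 times in that of CDKN1A and 3 times in that of GDF15, and on the opposite strand 0, 0, 2 and 4 times. None of these 4 windows held it in the last 50 bases, from the window's own start on, where 18.9% of all windows do. The window of BTG2, whose peak near the start lay on the opposite strand, held 1 GGAC there. The CDKN1A window lies wholly, and the BBC3 window mostly, inside the gene body, which begins at an earlier start. A match of letters is a description and not a methylated site. Peaks overlapped such a window of a member in 4 cases, all in colorectal lists: all 300 bases of the PPM1D window in LOVO shMETTL3 and 109 in RKO shMETTL3, 145 of the BBC3 window in LOVO control, and 9 of the MDM4 window in RKO shMETTL3. The RKO shMETTL3 peak in the PPM1D window ended before the gene body and is not among the peaks counted for the gene.

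MDM2, the E3 ubiquitin ligase that degrades p53, had 2 peaks in each of the 12 lists. Both lay toward the 3′ end, at chr12:68839236-68839809 and chr12:68841623-68842683, which lie 31.06 to 31.64 kb and 33.45 to 34.51 kb from the gene start. The second also overlaps CPM, a neighbouring gene. This second region lay on the plus strand, that of MDM2, though the count itself took peaks on either strand. It ranked high everywhere, above 87.4% to 99.3% of the peaks of its own list by the authors' p value or score. The first region was narrowest in the OVCAR8-labelled knockdown. It covered 160 and 152 bases in OVCAR8-labelled shMETTL3 lists, against 517 and 515 in OVCAR8 control, and 523 and 514 in SKOV3-labelled shMETTL3 lists, against 437 and 436 in SKOV3 control. In LOVO it covered 555 bases in shMETTL3 and 542 in control, and in RKO 561 and 574.

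MDM4, the MDM2 relative that binds p53 and blocks its activity, had 3 peaks in LOVO shMETTL3 and 3 in LOVO control, 3 in RKO shMETTL3 and 4 in RKO control, 2 and 2 in OVCAR8-labelled shMETTL3 against 3 and 3 in OVCAR8 control, and 3 and 3 in SKOV3-labelled shMETTL3 against 3 and 3 in SKOV3 control. Its regions at the 5′ end, 0.04 to 0.42 kb from the start (chr1:204516447-204516825), and toward the 3′ end, 32.6 to 33.64 kb from the start (chr1:204549006-204550046), were in all 12 lists. The 3′ region was among the strongest peaks of nearly every list, above 87.9% to 99.9% of its list with a median of 99.55%. A weak region 11.99 to 12.83 kb from the start (chr1:204528399-204529234), above 2.4% to 26.2% of its lists, was the only region of the 9 genes found in ovarian lists alone. It was in the OVCAR8 control, SKOV3-labelled shMETTL3 and SKOV3 control lists, and missing from both OVCAR8-labelled shMETTL3 lists, and it overlaps the locus LOC100291628. Another region, 28.08 to 28.25 kb from the start, was in LOVO shMETTL3, LOVO control and RKO control but not in RKO shMETTL3.

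PPM1D, the phosphatase WIP1 that is induced by p53 and removes activating phosphates from it, had 1 peak in LOVO shMETTL3 and 1 in LOVO control, 2 in RKO shMETTL3 and 2 in RKO control, and 1 in each of the 8 ovarian lists. The equal counts hid different places in LOVO. The peak of LOVO control lay 62.82 to 63.45 kb from the start (chr17:60663008-60663641), near the 3′ end, as in the 10 other lists that held this region. LOVO shMETTL3 was the single list without it, and its 1 peak instead spanned the gene start over 550 bases (chr17:60599910-60600459). RKO shMETTL3 held both a start peak and the 3′ peak.

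**Figure D2:**
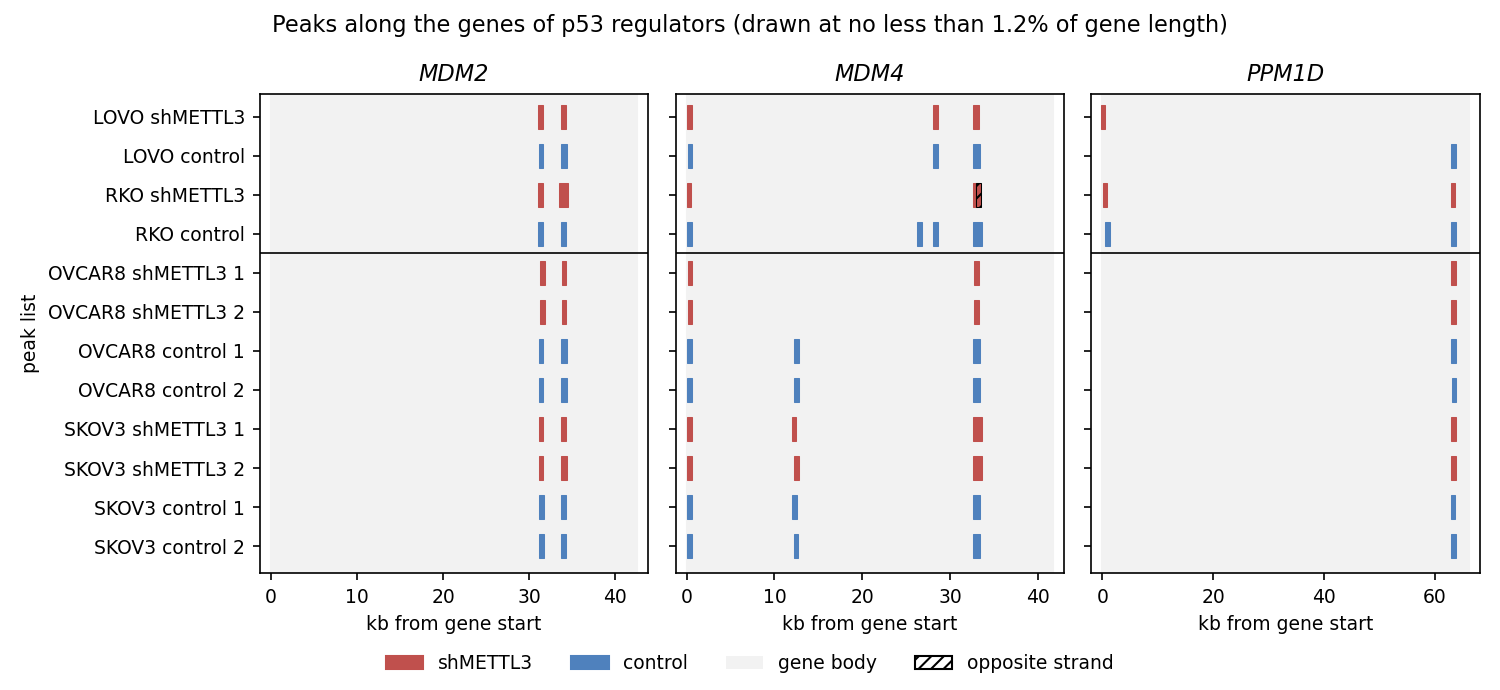
Positions of peaks along MDM2, MDM4 and PPM1D (x axis, kb from the gene start) in each of the 12 lists (rows), shMETTL3 in red and control in blue, with the gene body shaded. MDM2 has the same 2 regions in every list, the MDM4 region near 12 kb is missing from the OVCAR8-labelled shMETTL3 and all colorectal lists, and the 3′ region of PPM1D is missing only from LOVO shMETTL3.

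CDKN1A encodes p21, the inhibitor of cyclin-dependent kinases that carries out the p53 cell-cycle arrest. It had 1 peak in LOVO shMETTL3 and 0 in LOVO control, 1 in RKO shMETTL3 and 2 in RKO control, and 0 in all 8 ovarian lists. LOVO and RKO shared no region: the LOVO shMETTL3 peak began 89 bases from an annotated start (chr6:36678803-36679163), and the RKO peaks lay 7.65 to 8.24 kb and 9.16 to 9.53 kb from the gene start. The first of these RKO regions was in both conditions and the second in control alone.

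BTG2, an antiproliferative factor that recruits mRNA deadenylases, had 1 peak in LOVO shMETTL3 and 1 in LOVO control, and 2 in RKO shMETTL3 and 1 in RKO control. It had 0 and 0 in OVCAR8-labelled shMETTL3 against 1 and 1 in OVCAR8 control, and 1 and 1 in SKOV3-labelled shMETTL3 against 0 and 0 in SKOV3 control. One region, 1.5 to 2.29 kb from the start (chr1:203307023-203307805), held the peak of all 8 lists that had one. The second RKO shMETTL3 peak lay on the opposite strand at the gene start. The ovarian lists with a peak were thus those of OVCAR8 control and SKOV3-labelled shMETTL3, the groups that also shared most of their peaks.

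BBC3 encodes PUMA, a pro-apoptotic BH3-only protein. It had 5 peaks in LOVO shMETTL3 and 2 in LOVO control, 2 in RKO shMETTL3 and 1 in RKO control, and 0 in all 8 ovarian lists. A region at the 3′ end (chr19:47220999-47221858), 11 to 11.86 kb from the start, was in all 4 colorectal lists and above 76.7% to 97% of the peaks there. The 4 further LOVO shMETTL3 peaks were spread 2.64 to 6.28 kb from the start and occurred in no other list, 2 of them among the weakest of that list, above 3.8% and 15.6% of its peaks. BBC3 had the widest spread over the 12 lists, with an SD of 0.90 on the log2(peaks + 1) scale. Of 9611 genes with at least as many peaks, URAHP (Pearson r = 0.993), NFATC1 (r = 0.990) and BMP8A (r = 0.988) had peak numbers most like those of BBC3 over the 12 lists, which share tissue, list kind and list size.

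TP53INP1, a stress-induced protein of nuclear bodies and autophagosomes that promotes p53-dependent apoptosis, had 3 peaks in RKO shMETTL3, 2 in RKO control, 0 in LOVO shMETTL3, 0 in LOVO control and 0 in all 8 ovarian lists. It was the single member with peaks in 1 line alone. All 3 regions were on the minus strand where the gene overlaps NDUFAF6, and 2 of the 3 were in both RKO lists.

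GDF15, a secreted stress cytokine of the TGF-beta superfamily, had 3 peaks in LOVO shMETTL3 and 0 in LOVO control, 2 in RKO shMETTL3 and 2 in RKO control, and 0 in all 8 ovarian lists. Its 3′ region (chr19:18388300-18389169) was in LOVO shMETTL3, RKO shMETTL3 and RKO control. The other 2 regions, 0.06 to 0.3 kb and 0.51 to 0.78 kb from the start, were above 0.6% to 40.7% of the peaks of their lists.

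SESN1, a sestrin that restrains mTORC1 and counters oxidative stress, had 1 peak in each of the 12 lists. The region lay 0.17 to 1.02 kb from the start of the longest gene of the 9 (chr6:109093826-109094677, gene length 110.54 kb). It covered 845 bases in LOVO shMETTL3 and 842 in LOVO control, 794 in RKO shMETTL3 and 807 in RKO control, 171 and 285 in OVCAR8-labelled shMETTL3 against 367 and 432 in OVCAR8 control, and 390 and 665 in SKOV3-labelled shMETTL3 against 659 and 654 in SKOV3 control.

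**Figure D3:**
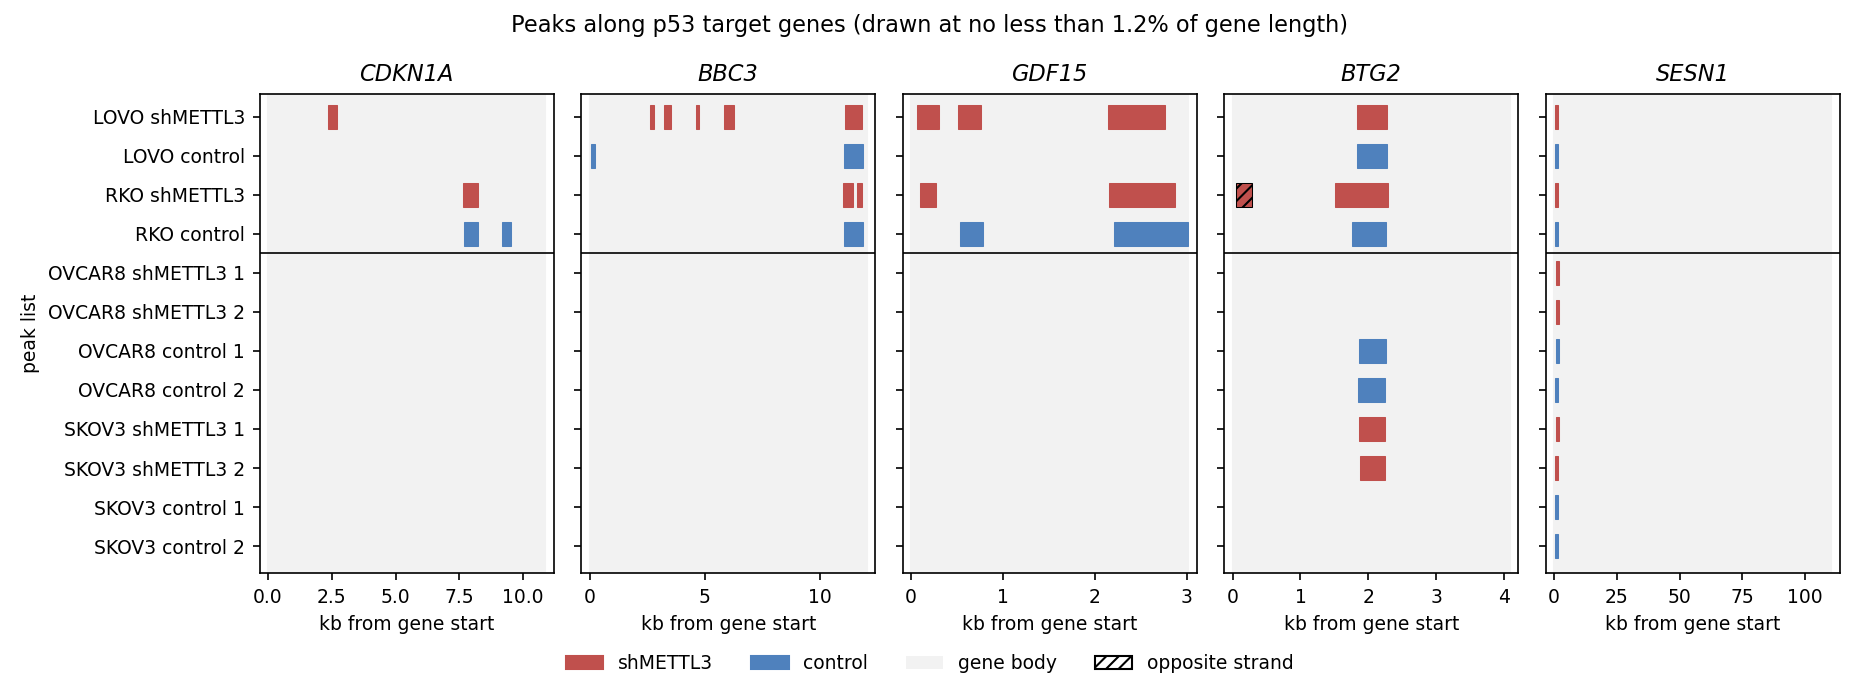
Positions of peaks along CDKN1A, BBC3, GDF15, BTG2 and SESN1 (x axis, kb from the gene start) in each of the 12 lists (rows), shMETTL3 in red, control in blue, hatched where the peak is on the opposite strand. The rows of the 8 ovarian lists are empty for CDKN1A, BBC3 and GDF15, and SESN1 has its region at the 5′ end in every row.

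Colorectal lists, from lines known to have wild-type p53, were set against ovarian lists. Of the ovarian lines SKOV3 is known to lack p53, and no p53 state is given here for OVCAR8. Of the 9 members, 4 (CDKN1A, BBC3, TP53INP1 and GDF15) had peaks in colorectal lists and none in ovarian lists, and 0 the reverse, where 17.7% of 15892 genes had the first pattern and 8.81% the reverse. Without the RKO shMETTL3 list it was 3 of 8 members, against 14.9% of genes and 13.6% the reverse. Without both RKO lists it was 1 of 6 (BBC3), against 11.6% and 19.3% the reverse, and without both LOVO lists 4 of 9, against 8.18% and 13.8% the reverse. Over control lists alone it was 1 of 6 (BBC3), since CDKN1A, GDF15 and TP53INP1 had peaks in RKO control alone and so missed the minimum of 2 lists, where 10.5% of 14126 genes had the pattern and 14.9% the reverse. With as many of the strongest peaks taken from each of the 12 lists, it was 3 of 7 (BBC3, GDF15 and BTG2), against 16.5% of genes. Among 40 other p53 targets, 32 had peaks in at least 2 lists and 4 of these, FAS, PIDD1, SESN2 and TRIM22, in colorectal lists only, which is 12.5%. PIDD1, an adaptor of the p53 death pathway, had 4 peaks in LOVO shMETTL3 and 1 in LOVO control, and 5 in RKO shMETTL3 and 2 in RKO control. Among 30 p53 regulators and kinases, 2 of 27 (KMT5A and USP7) had peaks in colorectal lists only, which is 7.41%. USP7 deubiquitinates MDM2 and p53, and KMT5A methylates p53. Between the control lists of the 2 colorectal and 2 ovarian lines, 1 of 6 members tested (BBC3) was higher in both colorectal lines, by 1.29 on the log2(peaks + 1) scale, where the lines of 36.3% of 14126 genes did not overlap, 29% higher and 7.23% lower. The exact two-sided permutation p for BBC3 was 0.333, the smallest that 4 lines allow.

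Knockdown was then set against control within each line. For the ovarian lines a gene counts as different where every list of one group had more peaks than every list of the other. With 2 lists against 2, an exact permutation p cannot fall below 0.333, so no p is given. In OVCAR8 as labelled, 5 members had enough peaks and 2 differed, MDM4 and BTG2, both lower in shMETTL3, where 56.4% of 12469 genes differed, 14% higher and 42.4% lower. Set against SKOV3 control, the OVCAR8-labelled shMETTL3 lists were lower in 1 of 5 members, MDM4, where 45.7% of genes differed, 3.01% higher and 42.7% lower. In SKOV3 as labelled, 1 of 5 members differed, BTG2, which was higher in shMETTL3, where 59.4% differed, 27% higher and 32.4% lower. Set against OVCAR8 control, the SKOV3-labelled shMETTL3 lists differed in 0 of 5 members, against 21.5% of genes, 9.42% higher and 12% lower. The controls of the 2 lines differed in 1 of 5 members, BTG2 with 1 and 1 peaks in OVCAR8 and 0 and 0 in SKOV3, against 64.5% of genes, 30.4% higher in OVCAR8 and 34.1% lower. The OVCAR8-labelled shMETTL3 lists were the shortest, and taking equal numbers of peaks from each list ended the MDM4 and BTG2 calls. By bases covered in place of peaks, all 5 members were lower in OVCAR8-labelled shMETTL3 than in OVCAR8 control, as were 7120 of the 12469 genes. Of the 5, 4 were lower than in SKOV3 control, as were 8898 genes. In SKOV3 as labelled, 2 of 5 were higher by bases and 0 lower, beside 4476 and 5716 genes. Against OVCAR8 control, 2 of 5 were higher in SKOV3-labelled shMETTL3 and 0 lower, beside 2893 and 2986 genes. Between the controls, 2 of 5 were higher in OVCAR8 and 2 lower, beside 4857 and 5918 genes.

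In LOVO, with 1 list per group and no test, 2 of 7 members, BBC3 (5 peaks in shMETTL3 and 2 in control) and GDF15 (3 and 0), were past 2-fold on peaks + 1, both higher in shMETTL3. Past that fold were 16.2% of 10855 genes, 5.01% higher and 11.1% lower. At a score of at least 5 BBC3 was at 0.585 on the log2 scale and not past it. GDF15 kept 1 peak there, in shMETTL3, too few to be compared. When only peaks in 1 gene were counted, BBC3 was at 0.74. In RKO 0 of 9 members were past 2-fold, against 43.3% of 12094 genes, 18.3% higher and 25% lower. CDKN1A was at -0.58, and BBC3 and BTG2 at 0.58 each, on the log2 scale. TP53INP1, at 0.41, reached 1 with lists of equal length and at a score of at least 5. That score kept 29016 of 34015 RKO shMETTL3 peaks but only 20233 of 37398 RKO control peaks. Over all 4 lines, with labels permuted within each line, the mean shMETTL3 minus control difference of the members ran from -0.18 for MDM4 to 0.50 for GDF15 on the log2 scale. In this exact permutation test the smallest p that the design allows is 0.0139, too large for a few genes to pass adjustment. The adjusted p was 1 for each member, and 0% of 15892 genes passed, 318 of them with an unadjusted p under 0.05, so that the test says little about the members.

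Counts of peaks do not show where peaks moved, so regions were compared as well. A region was a peak of the LOVO or RKO list, or a merged stretch with peaks in both replicate lists of an ovarian group. A control region was counted as lost where no shMETTL3 list had an overlapping peak on the same strand, and the reverse as gained. In LOVO 2 of 10 control regions in the members were lost, against 37.8% of all control regions, and 9 of 17 shMETTL3 regions were gained, against 26.9%. The 2 lost were the 3′ region of PPM1D and the start region of BBC3, and the 9 gained were 4 in BBC3, 3 in GDF15, and 1 each in CDKN1A and PPM1D. In RKO 5 of 17 were lost, against 60.1%, and 5 of 18 gained, against 54.9%. The RKO losses were 2 regions of MDM4 and 1 each of PPM1D, GDF15 and CDKN1A. In OVCAR8 as labelled 2 of 8 were lost, those of MDM4 and BTG2 described above, against 57.8%, and 0 of 6 gained, against 25.9%. In SKOV3 as labelled 0 of 7 were lost, against 44.4%, and 1 of 8 gained, BTG2, against 36.5%. With the controls exchanged, 1 of 7 SKOV3 control regions, in MDM4, had no peak in OVCAR8-labelled shMETTL3 lists, against 44.3%, and 0 of 6 were gained, against 1.94%. For SKOV3-labelled shMETTL3 against OVCAR8 control 0 of 8 were lost, against 14.6%, and 0 of 8 gained, against 8.81%. The members' control regions were strong, with a median above 74.2% to 84.6% of the peaks of their lists, and the share lost over all regions was lower for strong ones. Among all control regions that ranked in the top 10% of their lists, 3.61% were lost in LOVO and 25% in RKO. In OVCAR8 and SKOV3 as labelled it was 22.7% and 20.7%. Among those in the lowest 10%, 63.6% were lost in LOVO, 79.5% in RKO, and 80.6% and 60.1% in OVCAR8 and SKOV3 as labelled. With the controls exchanged, OVCAR8-labelled shMETTL3 lists lacked 4.4% of the top and 85.7% of the lowest SKOV3 control regions. SKOV3-labelled shMETTL3 lists lacked 2.35% of the top and 33.4% of the lowest OVCAR8 control regions. With peaks under a score of 5 left out, 1 of 9 control regions of the members was lost in LOVO, against 44.7%, and 4 of 12 shMETTL3 regions were gained, against 29.9% of all shMETTL3 regions. In RKO 2 of 10 were lost, against 52%, and 7 of 16 gained, against 65.2%, with 20233 control and 29016 shMETTL3 peaks left at that score. With lists of equal length 0 of 6 were lost in OVCAR8 as labelled, against 44.5%. How far strength accounts for the members' lower loss was not tested.

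**Figure D4:**
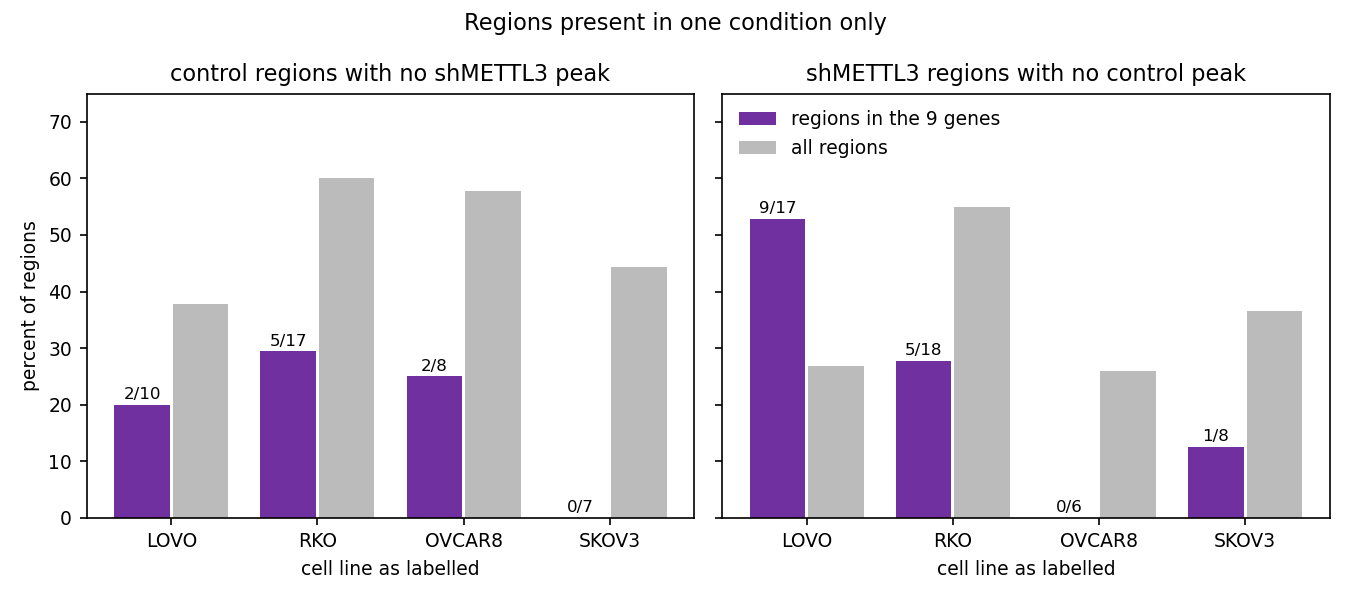
Percent of control regions with no shMETTL3 peak (left) and of shMETTL3 regions with no control peak (right) in the 9 genes (purple, with counts above the bars) and over all regions (grey), by cell line as labelled. The share without a counterpart is below that of all regions in every pair of bars but one, the gained regions of LOVO, where it is 9 of 17.

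The other genes of the pathway were read in the same way. In OVCAR8 as labelled, 18 of 26 other p53 targets were lower in shMETTL3 and 3 higher (69.2% and 11.5%, against 42.4% and 14% of all genes), with a median of -0.97 on the log2 scale against -0.29 over all genes tested. Among those furthest apart was CCNK, a cyclin of transcription kinases, with 0 and 0 in shMETTL3 and 3 and 5 in control. LIF, a cytokine, had 0 and 0 in shMETTL3 and 3 and 3 in control, and DDB2, a DNA damage sensor, 1 and 1 in shMETTL3 and 6 and 8 in control. Against SKOV3 control, 6 of the 26 were lower and 1 higher (23.1% and 3.85%, against 42.7% and 3.01% of all genes), with a median of 0.00 against -0.32. In SKOV3 as labelled 12 of 26 were higher and 3 lower (46.2% and 11.5%, against 27% and 32.4% of all genes), LIF and CCNK among the higher. Against OVCAR8 control 2 were higher and 2 lower, 7.69% each way, against 9.42% and 12% of all genes.

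Among the p53 regulators and kinases, 14 of 25 were lower and 2 higher in OVCAR8 as labelled (56% and 8%, against 42.4% and 14% of all genes). HUWE1, a ubiquitin ligase of p53, had 2 and 2 peaks in shMETTL3 against 24 and 24 in control. Against SKOV3 control, 14 of the 25 were also lower and 3 higher (56% and 12%, against 42.7% and 3.01%), with a median equal to that of all genes (-0.32). PRKDC, the DNA-PK kinase, had 0 and 0 peaks there in OVCAR8-labelled shMETTL3 against 6 and 6 in SKOV3 control. In SKOV3 as labelled 8 of 25 were higher and 3 lower (32% and 12%, against 27% and 32.4%), with HUWE1 at 10 and 10 peaks in shMETTL3 against 1 and 1 in control. HIPK2, a kinase that phosphorylates p53, had 1 and 1 peaks there in shMETTL3 against 29 and 28 in control. Against OVCAR8 control 2 of the 25 were higher and 2 lower, 8% each way, against 9.42% and 12% of all genes. In LOVO 1 of 26 was past 2-fold higher and 5 lower (3.85% and 19.2%, against 5.01% and 11.1% of all genes), among the lower TP53BP2, a p53-binding cofactor, with 0 peaks in shMETTL3 and 3 in control, and ATM, the kinase that starts the p53 response to DNA breaks, with 1 in shMETTL3 and 5 in control. In RKO 1 of 24 was higher and 6 lower (4.17% and 25%, against 18.3% and 25% of all genes). The median there was -0.585 on the log2 scale, against 0 over all genes. BRD7, a p53 cofactor, was at 0 in RKO shMETTL3 and 5 in RKO control, and KMT5A at 0 and 4. Of the other p53 targets, 2 of 27 were higher and 3 lower in LOVO (7.41% and 11.1%, against 5.01% and 11.1% of all genes). In RKO 5 of 30 of these targets were higher and 5 lower (16.7% each way, against 18.3% and 25% of all genes). FBXO22 had 0 peaks in LOVO shMETTL3 and 4 in LOVO control.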

How the data were processed

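The 12 peak lists of the MeRIP libraries were analysed and the input libraries were not analysed here. MACS2 2.2.7.1, HISAT2 2.1.0, Bowtie2 2.4.2 and Trim Galore 0.6.6 stand in the submitters' processing notes, without their roles, together with hg38. The authors deposited 1 list per library for OVCAR8 and SKOV3, with a fold enrichment (a linear ratio) per peak. The p and q values deposited there are on a −log10 scale. Each LOVO and RKO group has 1 deposited list, whose peaks carry a score that no header explains; how replicate 2 entered it is not stated. Read depth is unknown. Folds, scores and p values only described, ranked or filtered peaks within a list.

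Peaks were assigned to gene bodies of the RefSeq table of GRCh38.p14. In OVCAR8 and SKOV3, genes with a peak in at least 2 of the 8 ovarian lists were tested in every comparison. The genes tested thus include some with 0 peaks in the lists compared. BTG2, with 0 peaks in the OVCAR8-labelled shMETTL3 and SKOV3 control lists, is 1 of the 5 members there. In LOVO and RKO, genes with at least 2 peaks in the 2 lists of the line together were compared. The planned test for the ovarian lists, limma 3.58.1 on log2(peaks + 1), was replaced after its output was seen. In 33.1% of 12469 genes, and in all 5 members tested, both replicates of every group had equal peak numbers, so the spread was 0 and the standard errors were not usable. Complete separation of the lists took its place, and limma's counts stand among the alternatives. The p-values of the permutation tests measure only the spread between these lists, whose replicates may be technical. The 9 genes, the gene lists (40 other p53 targets, 30 regulators and kinases, 2 lists of 10 tissue markers) and the rules were chosen with earlier results of these data known. Other pathway genes are named if they were among the 6 furthest apart in an ovarian comparison or the 4 furthest in LOVO or RKO, and had passed. FAS, PIDD1, SESN2, TRIM22 and USP7 were named, as colorectal-only genes, after their values were seen. Python 3.11.15 and R 4.3.3 were used. The limma script, tested on simulated data, called few of the changed genes. Some genes named by the rule are not reported here.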

Additional observations from a re-analysis of the deposited data

Results flagged for a closer look

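CDKN1A differed in opposite directions in LOVO and RKO, though it was past 2-fold in RKO in neither direction and had too few peaks to be compared in LOVO. It had 1 peak in LOVO shMETTL3 and 0 in LOVO control, but 1 in RKO shMETTL3 and 2 in RKO control, and the LOVO and RKO differences were 1.58 apart on the log2(peaks + 1) scale. With 1 list per group this difference was not tested, and it rests on 1 peak in each line. At a score of at least 5 the RKO difference was 0.

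BTG2 differed in opposite directions in OVCAR8 and SKOV3 as labelled. It had 0 and 0 peaks in OVCAR8-labelled shMETTL3 against 1 and 1 in OVCAR8 control, and 1 and 1 in SKOV3-labelled shMETTL3 against 0 and 0 in SKOV3 control, so that the OVCAR8 difference minus the SKOV3 difference was -2 on the log2(peaks + 1) scale. The difference was not tested. Against the other line's control, both differences were 0.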

How the results depend on the processing

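The ovarian calls rest on a criterion chosen after the planned limma fit had been seen. limma as planned called 5744 genes in OVCAR8, 5917 in SKOV3, 4175 for OVCAR8-labelled shMETTL3 against SKOV3 control, 1351 for SKOV3-labelled shMETTL3 against OVCAR8 control and 6608 between the controls, where separation gave 7029, 7401, 5699, 2676 and 8046, and the 25 member calls were the same under both. Counting only peaks on the gene's strand, which leaves fewer genes, gave 4482, 4651, 3687 and 5032 genes for OVCAR8, SKOV3, OVCAR8-labelled shMETTL3 against SKOV3 control and the controls, and 3478 past 2-fold in RKO. With bases covered in place of peaks, the 2 comparisons with exchanged controls gave 9182 and 5879 genes. With equal numbers of peaks per list, the first of these gave 2990. Scaling by list size, which by construction separates lists with equal peak numbers, gave 6957 genes for the second and 7762 between colorectal and ovarian controls. It turned MDM4 to 0.45 in OVCAR8 and 0.48 against SKOV3 control. Scaled, 4 of 5 members were higher and 1 lower in OVCAR8, beside 4633 and 4539 genes. In SKOV3 5 were higher and 0 lower, beside 6224 and 4026. With the controls exchanged, 4 and 5 were higher and 0 lower, beside 3994 and 4064, and 5477 and 1480 genes. Between the ovarian controls 5 were higher in OVCAR8, beside 6481 genes. Between colorectal and ovarian controls 1 of 6 was higher and 3 lower, beside 3341 and 4421. The share of lower calls was 75.2% in OVCAR8 but 46.2% with equal lists and 49.5% scaled, 54.6% in SKOV3 but 39.3% scaled, 93.4% but 45.6% and 50.4% for OVCAR8-labelled shMETTL3 against SKOV3 control, 56.1% but 44.1% and 21.3% for SKOV3-labelled shMETTL3 against OVCAR8 control, 52.9% between the ovarian controls but 39.6% scaled, 69% in LOVO but 48.9% and 53%, 57.8% in RKO but 33.5% at a score of at least 5, and 19.9% between colorectal and ovarian controls but 57% scaled. Counting only peaks in 1 gene also ended the MDM4 calls and the BBC3 call in LOVO (0.74), and TP53INP1 reached 1 in RKO with equal lists and at a score of at least 5. Without both RKO lists, and over control lists alone, 1 member was colorectal-only. At a score of at least 5, lost regions of members were 1 of 9 in LOVO (all regions 44.7%) and 2 of 10 in RKO (52%) and gained regions in LOVO 4 of 12 (29.9%), and with equal lists OVCAR8 lost 0 of 6 (44.5%). Leaving out each replicate moved no ovarian total past 1.5 times, the widest range being 3518 to 3943 against 2676, but without SKOV3 shMETTL3 replicate 1 the higher genes of that comparison were 1854 against 1174. The replicate numbers did not pair the lists, with correlations of same-numbered deviations from -0.01 to 0.029. With the replicate block the counts were 7147, 7620, 5878, 3029 and 8225, and 0 over the 4 lines, where 105 genes had an unadjusted p under 0.05. The alternatives for colorectal-only genes and for lost and gained regions were chosen after seeing the data. Read depth behind a missing peak is unknown.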

Other observations

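The control lists of OVCAR8 and SKOV3 were also set against each other for the wider p53 pathway. Of 26 other p53 targets, 14 had more peaks in OVCAR8 control and 4 fewer, with a median of 0.41 on the log2(peaks + 1) scale against 0.00 over all genes tested. That is 53.8% and 15.4%, where 30.4% of all genes had more and 34.1% fewer. Of 25 regulators and kinases, 9 had more and 5 fewer, 36% and 20%. HUWE1 had 24 and 24 peaks in OVCAR8 control against 1 and 1 in SKOV3 control, and HIPK2 had 1 and 1 in OVCAR8 control against 29 and 28 in SKOV3 control. GADD45A, a growth arrest gene, had 0 and 0 peaks in OVCAR8 control against 3 and 2 in SKOV3 control.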
